A study of Mus musculus with 24 samples.

Results

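Nes, Vim and Synm encode nestin, vimentin and synemin, intermediate filament proteins found together in neural progenitor cells. They are 3 of the 55359 genes counted in cultured mouse oligodendrocytes with and without ethanol, and were chosen by name: Nes is ENSMUSG00000004891, Vim is ENSMUSG00000026728 and Synm is ENSMUSG00000030554. The genes were selected on results of these same wells, and which of their values guided the choice was not recorded, so any of them may have. Every level, fold change and adjusted p given for them is therefore a description of where they stand in the table and supports nothing further.

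The cells came from the cortex of C57BL6/J pups on postnatal days 5 to 7 and were sorted with magnetic beads against O4, a surface antigen of immature oligodendrocytes, per the labels' protocols. All 24 wells were then differentiated for 3 days, mainly with the thyroid hormone triiodothyronine (T3), and cultured for a further 3 days with or without ethanol. Experiment 1 held 6 wells with 30 mM ethanol and 6 control wells with 0 mM, and experiment 2 held 6 wells with 10 mM ethanol and 6 control wells with 0 mM. The labels name the experiments as batches. Each dose was used in only 1 experiment, so dose and batch cannot be told apart, and control plates stood in an incubator of their own, which cannot be told apart from the ethanol. The labels call the wells biological replicates, but nothing says that they came from separate animals, and p-values measure the spread between wells.

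Intermediate filaments are ropes of coiled-coil proteins that give cells mechanical strength. Vimentin, a type III protein, polymerises by itself, whereas nestin and synemin, which have long carboxy-terminal tails, need a partner such as vimentin. In the developing brain nestin and vimentin mark radial glia and other dividing progenitors, and both are known to decline as cells of the oligodendrocyte lineage mature. Reactive astrocytes make nestin, vimentin and synemin beside their main filament protein, GFAP, and vimentin is also abundant in fibroblasts, endothelial cells and microglia. Messenger RNA, not protein, was measured here.

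The 250 bases before the start site of each gene are shown as a description, and any part of them in the levels was not tested. They are RefSeq sequences on build GRCm38.p6, 1 entry per gene, written 5′ to 3′ in the direction of transcription, with matches to short promoter motifs in capitals.
Nes: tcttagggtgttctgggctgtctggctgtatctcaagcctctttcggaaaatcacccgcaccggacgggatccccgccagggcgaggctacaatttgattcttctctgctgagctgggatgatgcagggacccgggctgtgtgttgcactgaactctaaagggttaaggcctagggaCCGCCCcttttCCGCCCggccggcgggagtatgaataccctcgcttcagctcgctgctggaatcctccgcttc
Vim: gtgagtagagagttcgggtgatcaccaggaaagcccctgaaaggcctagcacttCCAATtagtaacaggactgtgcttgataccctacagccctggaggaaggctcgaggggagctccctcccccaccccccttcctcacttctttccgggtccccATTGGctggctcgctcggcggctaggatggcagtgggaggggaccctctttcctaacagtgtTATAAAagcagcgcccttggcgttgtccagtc
Synm: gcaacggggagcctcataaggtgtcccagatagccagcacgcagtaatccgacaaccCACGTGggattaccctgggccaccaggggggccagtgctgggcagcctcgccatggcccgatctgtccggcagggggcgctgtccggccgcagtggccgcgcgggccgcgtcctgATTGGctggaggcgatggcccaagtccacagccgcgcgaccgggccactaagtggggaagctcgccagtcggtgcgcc
The Nes window is chr3:87970843-87971092 on the plus strand, and its capitals are 2 GC boxes (GGGCGG on the opposite strand) that begin 73 and 62 bases before the start. The Vim window is chr2:13574061-13574310 on the plus strand. Its capitals are a TATA box (TATAAA, searched on the transcribed direction only) that begins 32 bases before the start and CCAAT boxes that begin 196 and 94 bases before it, the second on the opposite strand. The Synm window is chr7:67759743-67759992 on the minus strand, with an E-box (CACGTG) 193 bases and a CCAAT box on the opposite strand 78 bases before the start. Of 32851 mouse promoter windows of the same length, 7.59% held TATAAA, 33.8% held CCAAT, 32.7% held GGGCGG and 6.02% held CACGTG, the last 3 counted on both strands. AP-1 sites (TGANTCA) and CArG boxes, searched on both strands and present in 6.75% and 1.47% of the windows, had no match in the 3 sequences. No motif overlapped another. G and C made up 58.8% of the Nes window, 58.4% of the Vim window and 70% of the Synm window, against a median of 52.4%. A match is a description of letters and not a measured binding site.

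Levels are given as CPM, the counts of a gene scaled to the total of its well. Reads came from near the 3′ end of transcripts, so counts do not scale with transcript length and levels can be set side by side between genes. Total counts ran from 1184609 to 1817028 per well, and 3 counts, the floor for detection, corresponded to between 1.65 and 2.53 CPM. Genes of mature oligodendrocytes were abundant, with the summed level of 10 markers between 7096 and 15796 CPM, but 10 astrocyte markers summed to between 4105 and 6443 CPM and 11 microglia markers to between 2103 and 2719 CPM in experiment 2, against at most 286 CPM in experiment 1. Transcripts of several cell types were thus present, and no marker in these lists was at 0 in all wells. In bulk RNA, fewer cells of a type and less RNA per cell cannot be told apart. A pair of wells stood apart: replicate 1 of 30 mM ethanol had high levels of myelin genes, and replicate 6 of the experiment 1 controls had high Krt8 and Krt18 and low Gfap.

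Vim was by far the most abundant of the 3 genes, Nes was intermediate, and Synm was low. In the controls of experiment 2, Vim stood at 1956 ± 75.7 CPM (SD, n = 6), Nes at 372 ± 42.0 CPM (SD, n = 6) and Synm at 23.4 ± 3.55 CPM (SD, n = 6). Each gene was above the floor of 3 counts in every well, with Nes at 369 to 915 counts and Synm at 18 to 44 counts, and all 3 passed the filter on low counts in every comparison. The wells of Nes, Vim and Synm did not overlap with each other at any dose.

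**Figure D1:**
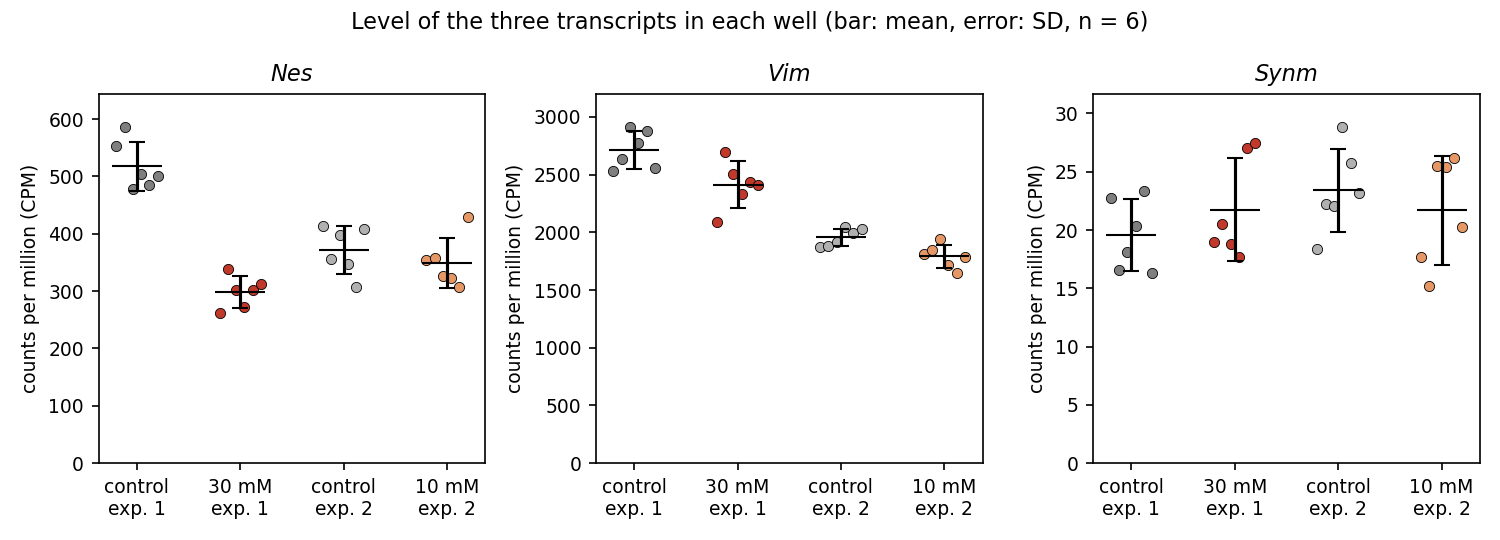
Levels of Nes, Vim and Synm in CPM (vertical axis, 1 panel per gene) in each of the 24 wells, by group along the horizontal axis. Points are wells and the bars are the mean and SD of 6 wells. Nes in 30 mM ethanol lies between 261 and 338 CPM, below all experiment 1 controls, whereas the Synm groups overlap.

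Nes was lower in 30 mM ethanol. Its lowest, median and highest levels were 477, 502 and 586 CPM in the experiment 1 controls, with a mean of 518 ± 42.5 CPM (SD, n = 6). In 30 mM ethanol they were 261, 303 and 338 CPM, with a mean of 298 ± 27.8 CPM (SD, n = 6). All 6 ethanol wells lay below all 6 control wells, and the ethanol mean was 57.6% of the control mean. The log2 fold change was -0.80 (SE 0.0679, 95% interval -0.93 to -0.66), and edgeR's quasi-likelihood test gave an adjusted p of 7.27e-12. By p, Nes was number 11 of 13235 tested genes.

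At 10 mM the Nes wells of the groups overlapped. The lowest, median and highest levels were 308, 377 and 414 CPM in the experiment 2 controls. In 10 mM ethanol they were 307, 340 and 429 CPM, with a mean of 350 ± 43.6 CPM (SD, n = 6). The highest and the lowest Nes levels of experiment 2 both fell among the ethanol wells. The log2 fold change was -0.09 (SE 0.0660, 95% interval -0.22 to 0.05), and edgeR's quasi-likelihood test gave an adjusted p of 0.717, and the ethanol mean was 94.0% of the control mean. The interval spans a fall of up to 0.22, no change and a rise of up to 0.05 on the log2 scale. The difference between the 30 mM and 10 mM effects was -0.72 (SE 0.104, 95% interval -0.93 to -0.52), with an adjusted p of 1.52e-06 for the interaction over 24 wells, rank 13 of 14655 genes.

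Vim was lower in ethanol by smaller amounts, which did not pass the threshold at 10 mM and at 30 mM passed only in some fits. Its lowest, median and highest levels were 2531, 2703 and 2912 CPM in the experiment 1 controls, with a mean of 2715 ± 164 CPM (SD, n = 6). In 30 mM ethanol they were 2086, 2422 and 2700 CPM, with a mean of 2412 ± 203 CPM (SD, n = 6). The groups overlapped, although 5 of 6 ethanol wells lay below the lowest control well. The log2 fold change was -0.17 (SE 0.0611, 95% interval -0.30 to -0.05), and edgeR's quasi-likelihood test gave an adjusted p of 0.0641. This value lies close to the threshold of 0.05. It passed with the replicate number as a block (adjusted p 0.0428), in a joint fit of 24 wells (0.0378) and with scaling by total count only (0.0455). It also passed without replicate 2 of 30 mM ethanol (log2 -0.22, adjusted p 0.0108) or without replicate 6 of the experiment 1 controls (log2 -0.20, adjusted p 0.0265). It did not pass with RLE size factors (adjusted p 0.0764), with DESeq2 (0.0769) or with no filter on low counts (0.148). Nor did it pass in 10 of the 12 fits that left out 1 well (adjusted p up to 0.185).

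In experiment 2 the lowest, median and highest Vim levels were 1870, 1956 and 2043 CPM in the controls. In 10 mM ethanol they were 1652, 1799 and 1941 CPM, with a mean of 1793 ± 101 CPM (SD, n = 6). The ethanol mean was 91.7% of its control mean, against 88.8% at 30 mM. The log2 fold change was -0.12 (SE 0.0494, 95% interval -0.22 to -0.02), and edgeR's quasi-likelihood test gave an adjusted p of 0.353. The difference between the dose effects was -0.06 for Vim (95% interval -0.23 to 0.10, adjusted p 0.732), an interval that includes no difference.

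Synm groups overlapped in each comparison. The lowest, median and highest levels were 16.3, 19.2 and 23.3 CPM in the experiment 1 controls. In 30 mM ethanol they were 17.7, 19.7 and 27.5 CPM. In the experiment 2 controls they were 18.4, 22.7 and 28.8 CPM. In 10 mM ethanol they were 15.2, 22.8 and 26.2 CPM. The log2 fold change was 0.13 at 30 mM (SE 0.169, 95% interval -0.21 to 0.47, adjusted p 0.687) and -0.08 at 10 mM (SE 0.155, 95% interval -0.38 to 0.23, adjusted p 0.920). These intervals are wide, and they span both a fall and a rise. The Synm gene overlaps Ttc23 on the opposite strand, which had 7 to 38 counts per well, and whether counting used strand is not given in the sources used here. Reads of these genes may thus be mixed, and Synm values are uncertain for that reason. No annotated gene overlapped Nes or Vim in GENCODE M21.

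At 30 mM, 1 of the 3 genes was called lower and none higher, where 6.65% of all tested genes were called lower, 3.02% higher and 9.67% in either direction. Of all genes, 3.77% had every ethanol well below every control well, as Nes did. At 10 mM none of the 3 genes was called by edgeR. Of all genes 0.657% were (0.391% higher and 0.266% lower), which is 89 of 13538, with 1366 at an unadjusted p under 0.05 and 32 called by DESeq2. Of the 3 genes only Vim had an unadjusted p under 0.05 at 10 mM. In the difference between the doses, 1 of 3 was called, in the lower direction, where 3.28% of all genes were called, 2.4% lower and 0.88% higher. Nothing is read from these shares, because the genes were chosen with such results in view.

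The control groups of the experiments differed as well. Nes was higher in the controls of experiment 1 than in those of experiment 2, with a log2 fold change of 0.52 (SE 0.0611, 95% interval 0.40 to 0.64, adjusted p 2.12e-11). Vim differed by the same amount, 0.52 (SE 0.0536, 95% interval 0.41 to 0.63, adjusted p 1.24e-13). For both genes every control well of experiment 1 lay above every control well of experiment 2. Synm differed by -0.19 (SE 0.159, 95% interval -0.51 to 0.12, adjusted p 0.327). Thus 2 of the 3 genes were called between the untreated groups, both higher, where 43.6% of all tested genes were called, 21.3% higher and 22.3% lower. Of all tested genes, 8.88% had every experiment 1 control well above every experiment 2 control well. This comparison and the 30 mM comparison share the experiment 1 controls.

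By mean level, the order for Nes was experiment 1 controls, experiment 2 controls, 10 mM ethanol and 30 mM ethanol. Only the first step in that order had no overlap between wells, and the 10 mM and 30 mM ethanol wells, which come from different experiments, overlapped. For Vim the order was experiment 1 controls, 30 mM ethanol, experiment 2 controls and 10 mM ethanol. The lowest Vim level in 30 mM ethanol, 2086 CPM, was still above the highest in the experiment 2 controls, 2043 CPM. For Synm all neighbours in the order overlapped.

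The balance between Nes and Vim differed in 30 mM ethanol, and is given as a description with no test. There were 12.4 ± 0.453 Nes counts per 100 Vim counts (SD, n = 6) in 30 mM ethanol, with wells from 11.7 to 13.0. The experiment 1 controls had 19.2 ± 2.48 (SD, n = 6), with wells from 16.4 to 22.2, and the groups did not overlap. In experiment 2 the ratio was 19.5 ± 2.43 per 100 (SD, n = 6) with 10 mM ethanol and 19.1 ± 2.50 per 100 (SD, n = 6) in the controls, and these groups overlapped. The ratio in both control groups was thus alike although both genes were higher in experiment 1. The Nes to Vim ratio was also less variable between the 30 mM wells than in the other 3 groups, a difference in spread that was not tested. Synm counts per 100 Vim counts were on average 0.905 in 30 mM ethanol, 0.722 in its controls, 1.22 in 10 mM ethanol and 1.19 in its controls.

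**Figure D2:**
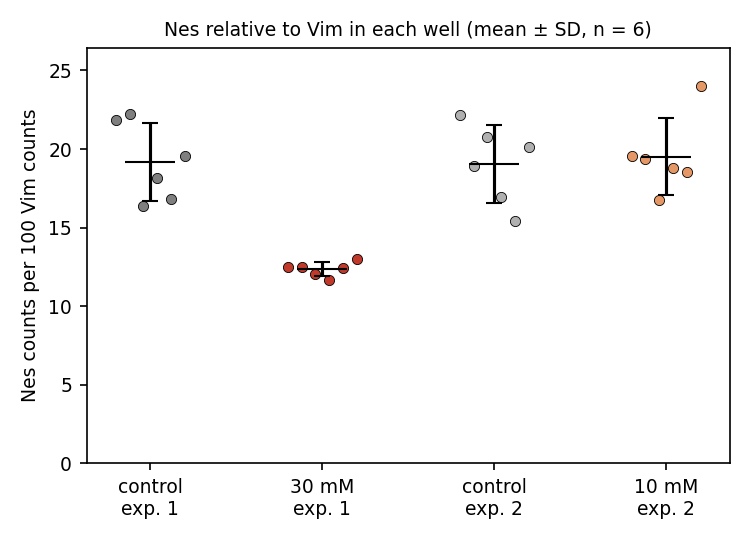
Nes counts per 100 Vim counts (vertical axis) in each of the 24 wells, by group along the horizontal axis, with the mean and SD of 6 wells. The 30 mM ethanol wells lie between 11.7 and 13.0, and the lowest control well of experiment 1 lies at 16.4.

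The spread between wells was larger than counting error for Nes and Vim in all 4 groups and close to it for Synm. The coefficient of variation (CV) between wells of Nes was 9.32% in 30 mM ethanol, where Poisson counting error alone would give 4.97%. For Vim it was 8.40%, against 1.75% from counting. For Synm it was 20.1%, against 18.5% from counting, and in the experiment 1 controls the Synm CV of 15.6% was below the counting value of 18.6%. Depth thus limits what can be said of Synm at its 18 to 44 counts per well. Among the 30 mM wells, replicate 2 had the highest Nes and Vim levels (338 and 2700 CPM) and replicate 1 the lowest (261 and 2086 CPM). Without replicate 1, in which myelin genes were high, the log2 fold changes were -0.76 for Nes, -0.14 for Vim and 0.17 for Synm.

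The other intermediate filament genes were described from a list of 13, of which 8 had enough counts to be tested at each dose. At 30 mM, 1 rose and 4 fell, with a median log2 fold change of -0.36 over the 8, against 0.02 over all genes. Over all tested genes 3.02% were called higher and 6.65% lower. This list was chosen with earlier results of these data known. Gfap, the astrocyte filament and a copolymer of vimentin, rose from 1536 ± 138 to 2055 ± 246 CPM (SD, n = 6 each), a log2 fold change of 0.42 (SE 0.0700, adjusted p 4.26e-05). Lmnb1, a lamin of the nuclear envelope that is known to be high in dividing cells, fell from 75.7 ± 8.93 to 45.2 ± 9.31 CPM (SD, n = 6 each), a log2 fold change of -0.71 (SE 0.113, adjusted p 1.79e-05). Lmna, the gene of lamins A and C, fell by 0.30 on the log2 scale (SE 0.0731, adjusted p 0.00462), with no overlap between wells for either lamin gene. Every ethanol well lay below every control well for 3.77% of all tested genes.

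Krt8 and Krt18, which form the keratin pair of simple epithelia, had log2 fold changes of -1.62 (adjusted p 0.00103) and -1.35 (adjusted p 9.85e-04). Replicate 6 of the controls held 191 CPM of Krt8, where the other 5 controls held 22.0 to 58.9 CPM, and 330 CPM of Krt18, where the others held 45.1 to 104 CPM. Without that well the log2 fold changes were -0.92 for Krt8 and -0.73 for Krt18. The neuronal filament genes Nefm (-0.42, adjusted p 0.312) and Ina (0.27, adjusted p 0.194) and the lamin gene Lmnb2 (0.06, adjusted p 0.878) did not pass. Des, Prph, Nefl, Nefh and Sync had too few counts to be tested, and Sync was at 0 counts in all experiment 2 wells.

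At 10 mM none of the 8 other filament genes passed, with a median log2 fold change of 0.04, where 0.657% of all tested genes passed. Gfap was at 1848 ± 80.4 CPM in the controls and 1880 ± 114 CPM in 10 mM ethanol (SD, n = 6 each), a log2 fold change of 0.03 (adjusted p 0.899). The 10 mM value furthest from 0 among the 8 genes was -0.46 for Nefm (adjusted p 0.248). In the difference between the doses, Gfap (0.37, adjusted p 0.0103), Lmnb1 (-0.83, adjusted p 1.57e-04) and Krt8 (-1.89, adjusted p 0.0395) passed, the last with the control well of high keratins included and at -1.21 without it. In that difference 3.28% of all tested genes were called. Between the control groups 7 of the 8 differed, where 43.6% of all tested genes did. Krt8 (2.92) and Krt18 (2.64) were furthest above 0 and Nefm (-1.06) furthest below.

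**Figure D3:**
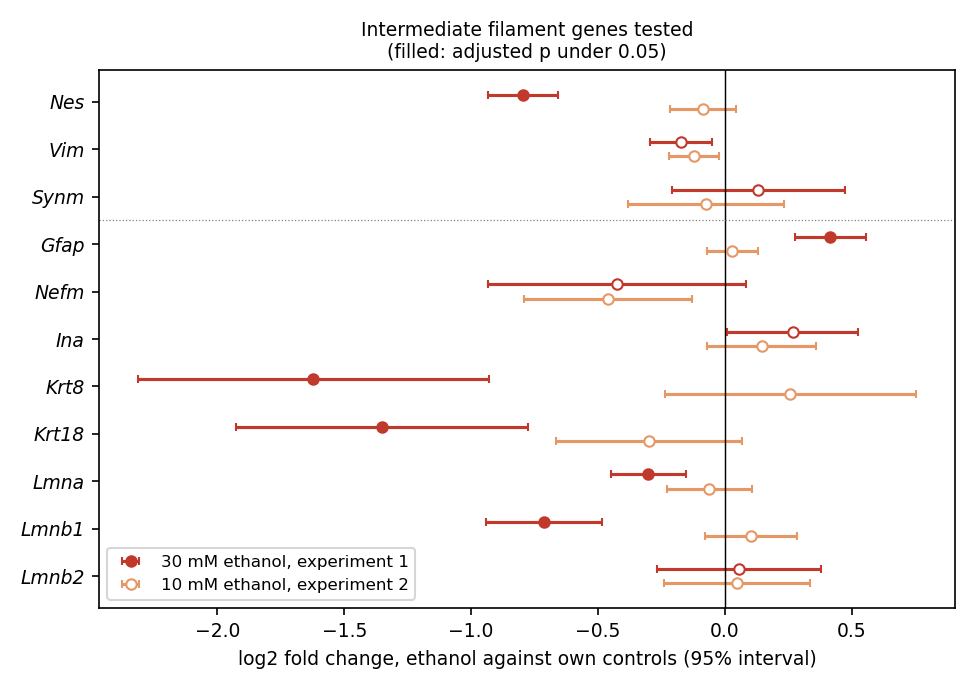
Log2 fold changes of the 3 progenitor filament genes and the 8 other tested intermediate filament genes at 30 mM and 10 mM ethanol (horizontal axis, ethanol over control of the same experiment), with 95% intervals and filled points for an adjusted p under 0.05. Nes lies at -0.80 and Gfap at 0.42 at 30 mM, and both lie near 0 at 10 mM.

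Summed over the 16 intermediate filament genes, Nes, Vim and Synm included, the level was 5281 ± 97.9 CPM in the experiment 1 controls and 5106 ± 445 CPM in 30 mM ethanol (SD, n = 6 each). In experiment 2 the sum was 4528 ± 138 CPM in the controls and 4367 ± 204 CPM in 10 mM ethanol (SD, n = 6 each). The makeup of that sum differed at 30 mM. Nes made up 9.81% of it in the experiment 1 controls and 5.85% in 30 mM ethanol. Vim made up 51.4% and 47.3%, and Gfap made up 29.1% and 40.1%. In experiment 2, Nes made up 8.21% without ethanol and 7.99% with 10 mM, and Gfap 40.8% and 43.0%. Synm was at most 0.517% of the sum in any group mean. Nes counts per 100 Gfap counts averaged 33.9 ± 4.01 in the experiment 1 controls and 14.6 ± 1.45 in 30 mM ethanol, and 20.1 ± 1.89 and 18.6 ± 1.87 in the controls and ethanol wells of experiment 2 (SD, n = 6 each).

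**Figure D4:**
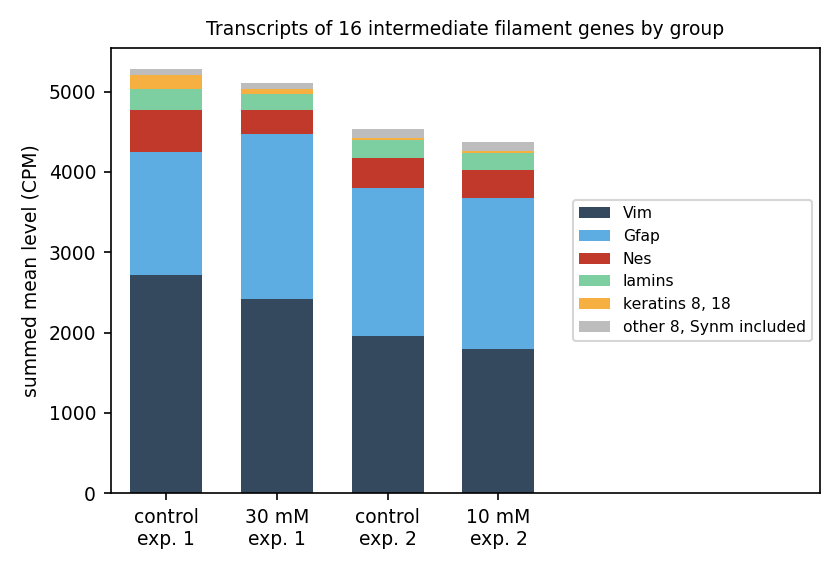
Mean levels of 16 intermediate filament genes stacked in CPM (vertical axis) for the 4 groups of 6 wells, with no error bars, coloured for Vim, Gfap, Nes, the lamins, keratins 8 and 18 and the other 8 genes, Synm included. Between the experiment 1 controls and 30 mM ethanol the Nes segment goes from 9.81% to 5.85% of the bar and the Gfap segment from 29.1% to 40.1%.

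Genes whose products link, phosphorylate or anchor these filaments gave mixed counts. Over all tested genes, 9.67% were called at 30 mM and 0.657% at 10 mM. Of 4 tested linker genes, which encode plakins that tie filaments to actin, microtubules or junctions, 1 rose at 30 mM: Dst, with a log2 fold change of 0.22 (adjusted p 0.0328), a call lost in 7 of 12 fits that left out 1 well (adjusted p up to 0.118). At 10 mM 1 of 3 fell: Macf1, at -0.27 (adjusted p 0.0291), a call lost in 8 of 12 such fits (adjusted p up to 0.103). Plec, the plectin gene and the best known vimentin linker, had log2 fold changes of -0.23 at 30 mM (adjusted p 0.203) and -0.27 at 10 mM (adjusted p 0.141). Of 7 kinases known to phosphorylate vimentin or nestin, 3 fell at 30 mM and none at 10 mM. They were Plk1 (-0.70, adjusted p 1.97e-05) and Cdk1 (-0.53, adjusted p 6.04e-05), which act in mitosis, and Rock2 (-0.27, adjusted p 0.0268), which acts on the actin cytoskeleton and lost its call in 5 of 12 such fits (adjusted p up to 0.116). Cdk5, which phosphorylates nestin in muscle and neural cells, had a log2 fold change of 0.17 (adjusted p 0.383). Plec and Cdk5 were picked for naming after their values were seen.

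Of 5 tested genes for proteins that synemin is known to bind, 2 fell and 1 rose at 30 mM. The shares over all tested genes were 6.65% lower and 3.02% higher. Zyx, a focal adhesion protein, fell from 104 ± 9.66 to 65.7 ± 4.94 CPM (SD, n = 6 each), a log2 fold change of -0.65 (adjusted p 9.06e-07). Tln1, the talin that couples integrins to actin, fell by 0.50 on the log2 scale (adjusted p 3.55e-05). Dtna, a member of the dystrobrevin family, rose by 0.31 (adjusted p 0.00131). None of the 5 passed at 10 mM. Their values stand beside a log2 fold change of 0.13 for Synm itself.

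Other progenitor genes mostly did not pass at 30 mM. Among all tested genes, 9.67% passed at 30 mM and 0.657% at 10 mM. Of 12 genes of radial glia and neural progenitors 1 rose and 1 fell, with a median log2 fold change of -0.04. Without replicate 1 of 30 mM ethanol 2 of the 12 rose, and without replicate 6 of its controls 0 did, with 1 lower in both cases. Hes1, a Notch target that holds progenitors undifferentiated, fell from 57.3 ± 5.04 to 44.0 ± 3.42 CPM (SD, n = 6 each), a log2 fold change of -0.39 (adjusted p 0.00986). Cd44, an adhesion receptor, rose by 0.22 (adjusted p 0.0271), a call lost in 5 of 12 fits without 1 well (adjusted p up to 0.0921). Fabp7, the radial glial fatty acid binding protein, averaged 4080 CPM in controls and 4074 CPM in 30 mM ethanol, and Sox2, a progenitor transcription factor, had a log2 fold change of -0.09 (adjusted p 0.525). Fabp7 and Sox2 were picked for naming after their values were seen, so they do not stand for the list. Of 9 genes of oligodendrocyte progenitors, Bcan (0.30, adjusted p 0.00170) rose and Olig1 (-0.25, adjusted p 0.0159) fell, the latter a call lost in 4 of 12 fits (adjusted p up to 0.0602). At 10 mM none of the 12 and only Bcan (0.23, adjusted p 0.0416) of the 9 passed, and Bcan did not pass in 7 of 12 fits without 1 well (adjusted p up to 0.172). Whether Nes differs from these genes in its response was not tested.

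Genes of dividing cells and of other cell types moved with Nes at 30 mM. Of all tested genes, 6.65% were called lower there and 3.02% higher, and at 10 mM 0.266% and 0.391%. The lists were chosen with earlier results of these data known, so nothing is read from their counts. Of 10 cell cycle genes 8 fell, Top2a (-0.41, adjusted p 5.72e-05), Ccna2 (-0.68, adjusted p 4.51e-05) and Mcm3 (-0.56, adjusted p 2.07e-04) among them, with a median of -0.46, and their summed level was 619 to 767 CPM in 30 mM ethanol against 887 to 977 CPM in its controls. Of 10 tested genes of mural cells and fibroblasts, which also make nestin or vimentin, 7 fell, with a median of -0.85. Acta2, the smooth muscle actin, fell from 360 ± 39.1 to 120 ± 38.2 CPM (SD, n = 6 each), and the summed level of the list was 385 to 482 CPM in 30 mM ethanol against 853 to 1131 CPM in its controls. At 10 mM 2 of 9 fell, the matrix genes Dcn (decorin, -0.39) and Col3a1 (a fibrillar collagen, -0.38), and the sums overlapped at 566 to 626 and 576 to 778 CPM. These calls were lost in 3 of 12 fits without 1 well for Dcn (adjusted p up to 0.0986) and 6 of 12 for Col3a1 (log2 -0.265 and adjusted p 0.268 without replicate 5 of the experiment 2 controls). None of 10 cell cycle genes passed at 10 mM. The part of these cells in the Nes result was not tested.

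Maturing oligodendrocyte genes and astrocyte genes went the other way. These lists too were chosen with earlier results known. Called higher were 3.02% of all tested genes at 30 mM and 0.391% at 10 mM. Of 10 mature oligodendrocyte genes, among them Mbp (0.44, adjusted p 1.56e-04), 8 rose at 30 mM, with a median of 0.44, and the summed levels were 9054 to 15796 CPM against 7566 to 8727 CPM. The highest sum was that of replicate 1 of 30 mM ethanol, which stood apart in Mal, Mobp, Mag, Mbp and Cnp. Without it 8 of 10 genes were called higher, with a median of 0.30 and sums of 9054 to 10048 CPM, and the log2 fold change was 0.29 for Mbp, 0.40 for Mag and 0.23 for Cnp. At 10 mM, Mal, Mag and Cnp rose. Of 9 tested astrocyte genes 5 rose at 30 mM, Gfap, Slc1a2 (0.62), Aqp4 (0.56) and Gja1 (0.51) among them, with a median of 0.35 and sums of 5339 to 6443 CPM against 4105 to 4784 CPM. None of the 9 passed at 10 mM. Of 6 tested microglia genes Cx3cr1 rose at 30 mM, and the sums overlapped, at 173 to 286 CPM with ethanol and 169 to 284 CPM without. Cx3cr1 kept this call in all 12 fits without 1 well, at log2 fold changes of 0.942 to 1.23, but with an adjusted p up to 0.0479. None of 3 tested endothelial genes passed at either dose, and their sums, 42.0 to 72.2 CPM with 30 mM ethanol and 44.6 to 64.7 CPM without, overlapped. Of 7 neuronal genes Stmn2 (-0.71, adjusted p 1.27e-05) fell at 30 mM. At 10 mM Stmn2 fell and Tubb3 rose among the 7, and Cx3cr1 rose among 9 tested microglia genes. In fits without 1 well, these 10 mM calls were lost in 7 of 12 for Stmn2 (adjusted p up to 0.0939). They were lost in 5 of 12 for Tubb3 (up to 0.0986) and 7 of 12 for Cx3cr1 (up to 0.161). The part of these lists in the levels of Nes, Vim and Synm was not tested.

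Between the control groups, where Nes and Vim were higher in experiment 1, 5 of 10 cell cycle genes were higher and none lower. Of 12 progenitor genes 7 were higher and 2 lower, and all 9 tested microglia genes were lower. Over all tested genes 43.6% were called, 21.3% higher and 22.3% lower. Of the 10 mural and fibroblast genes 3 were higher and 4 lower, Acta2 by 3.92 on the log2 scale among the first and Col1a2 by -0.41 among the second. The part of these cells in the difference between the controls was not tested.

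The genes whose levels followed each of the 3 most closely were found by Pearson's r of log2 CPM over the 24 wells, among 13350 genes, and r is given as a description because wells share group and batch. Over all wells, the closest to Nes were Tceal9 (0.907), Jpt1 (0.903), Hint1 (0.890), Rack1 (0.889) and Hdgf (0.882). After the mean of each experiment was subtracted they were Lgals1 (0.947), Mcm7 (0.924), Myl9 (0.924), Mcm6 (0.922) and Capg (0.919). Mcm6 and Mcm7 encode subunits of the replicative helicase, and Myl9 a myosin light chain. All 10 were called lower at 30 mM, where 6.65% of all tested genes were. They were picked for following Nes over these same wells, so this count was largely set by the choice and shows nothing further.

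The closest to Vim over all wells were Ezr (0.960), Heg1 (0.959), Palld (0.954), Pfkp (0.952) and Mdh1 (0.952). With the experiment means subtracted they were Ezr (0.850), Slc35f1 (0.827), Ddr2 (0.823), Dhrs1 (0.803) and Heg1 (0.800). Ezr encodes ezrin, which links the membrane to actin. At 30 mM, 4 of the 5 closest to Vim over all wells were called lower, and 3 of the 5 with experiment means subtracted. These genes too were picked on the same wells. Synm had no gene as close: the highest were 2610037D02Rik (0.713) over all wells and Gm7502 (0.743) with experiment means subtracted, and none of its 5 closest genes in either list was called lower at 30 mM. Given the counting error of Synm, weak likeness is no finding. Among the 3 genes, r between Nes and Vim was 0.53 over all wells, 0.68 with experiment means subtracted and 0.36 with group means subtracted. For Nes and Synm the values were -0.23, -0.20 and -0.21, and for Vim and Synm -0.11, 0.06 and 0.14.

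**Figure D5:**
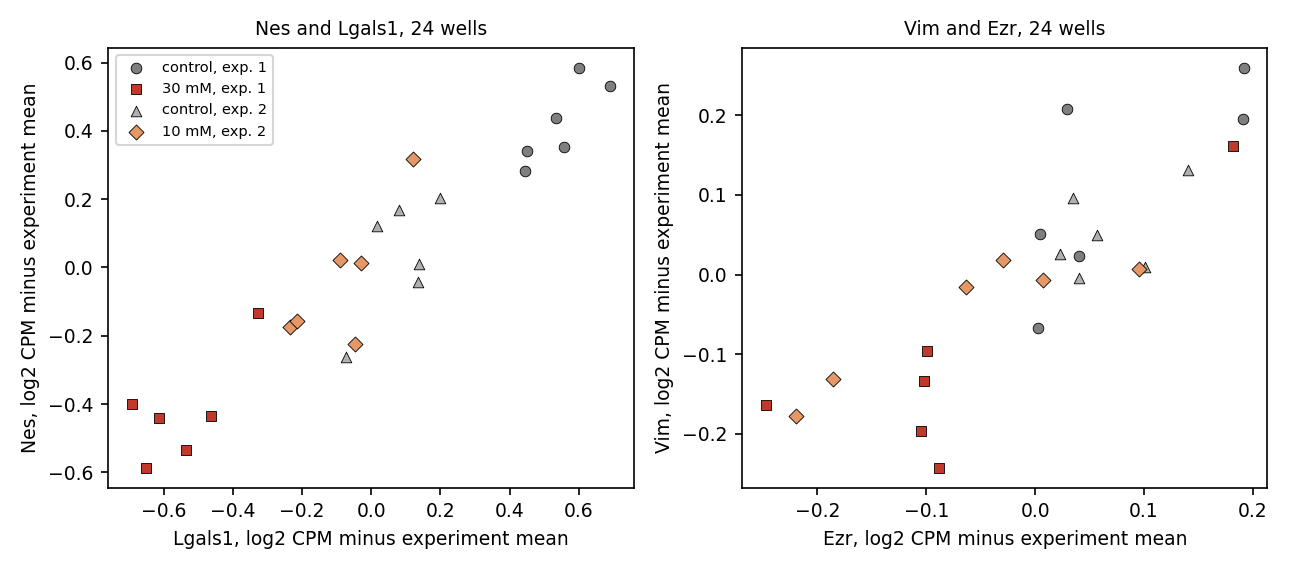
Nes against Lgals1 (left) and Vim against Ezr (right), the closest gene to each, in 24 wells, with both axes in log2 CPM after the mean of each experiment was subtracted. Each symbol is a well of 1 of the 4 groups. Pearson's r is 0.947 on the left, where 30 mM ethanol wells and their controls lie at opposite ends, and 0.850 on the right, where the groups lie closer together.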

How the data were processed

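The authors deposited raw counts of 3′ tag reads per Ensembl gene for 24 wells, in 1 table. Libraries were made from at most 150 ng of RNA and read as single 100-base reads, per the labels' protocols. The submitters' processing notes name cutadapt 1.18, STAR and build GRCm39. The counting tool, annotation, use of strand and removal of PCR duplicates are not given in the sources used here. Symbols matched 94.1% of identifiers.

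Each dose was tested against the controls of its own experiment with edgeR 4.0.16 (R 4.3.3, limma 3.58.1): TMM normalization, the filterByExpr filter with a minimum count of 10, the quasi-likelihood test and Benjamini-Hochberg adjustment over all tested genes, called at 0.05. The dose difference was an interaction over 24 wells. SE is the log2 fold change divided by the square root of F, and 95% intervals use the test's degrees of freedom. The steps were tested on simulated data with 200 changed genes. At a log2 change of 0.5, 48% were recovered for 30 mM, 46.5% for 10 mM, 20% for the dose difference and 49.5% for the controls. At a log2 change of 1 these were 84%, 91.5%, 67.5% and 91.5%. False calls made up 2.11% to 7.58% of all calls. Counting CVs and floors cover counting error only.

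The 3 genes and the 13 lists were chosen with earlier results of these data known. Of each list, at most 4 called genes with the smallest p at a dose were eligible to be named, plus all intermediate filament genes; Plec, Cdk5, Fabp7 and Sox2 were chosen after their values were seen. Likeness used tested genes with a mean log2 CPM of at least 3 (prior count 2). Alternatives were RLE size factors, total counts only, no low-count filter, DESeq2 1.42.0, a joint fit, a replicate block, and leaving out each well. The reference is GRCm38, not the build of the counts: it gave the RefSeq promoter windows, with coordinates on that build, and the gene overlaps (GENCODE M21), and no count was joined to a position. List counts at 30 mM were also made without each of the 2 wells that stood apart, chosen after seeing the data.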

Additional observations from a re-analysis of the deposited data

Results flagged for a closer look

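A gap test within each group of 6 wells (Dixon's) set 1 well apart in 10 of 172 gene and group series, where chance alone gives about 1 in 20. The 10 series came from 3 wells, and none concerned Nes, Vim or Synm. Replicate 6 of the experiment 1 controls was low in Gfap at 1258 CPM, with the other 5 wells at 1571 to 1642 CPM, and high in Krt8 (191 CPM) and Krt18 (330 CPM). Replicate 1 of 30 mM ethanol was high in Mal (490 CPM), Mobp (1449 CPM), Mag (905 CPM), Mbp (4967 CPM), Cnp (1505 CPM) and Tubb3 (252 CPM). Replicate 4 of the experiment 2 controls was low in Nefm at 18.4 CPM, with the others at 23.0 to 24.5 CPM.

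The interaction test over 24 wells called the effect at 30 mM different from that at 10 mM for Nes (-0.72 on the log2 scale, the 30 mM effect minus the 10 mM effect). It called 22 of the 43 genes looked up under the naming rule, Nes included. Other list genes that it called are not given, so the names below are not complete for each list. Among filament genes it also called Lmnb1 (-0.83), Gfap (0.37) and Krt8 (-1.89, or -1.21 without replicate 6 of the experiment 1 controls). Among linkers, kinases and anchoring partners it called Dst (0.30), Plk1 (-0.70), Cdk1 (-0.58), Zyx (-0.57) and Tln1 (-0.48). Of the progenitor lists it called Cd44 (0.33) and Olig1 (-0.37). In the marker lists it called Mobp (0.46, or 0.23 without replicate 1 of 30 mM ethanol), Mbp (0.36, or 0.19 without it), Slc1a2 (0.61), Aqp4 (0.60), Gja1 (0.48), Cnn1 (-1.16), Acta2 (-1.43) and Col1a2 (-0.92), and in the cell cycle list Ccna2 (-0.84), Top2a (-0.47) and Mcm3 (-0.54). Without 1 well at a time, the call was lost in 20 of 24 fits for Dst, 17 for Mbp, 11 for Cd44, 10 for Krt8, 3 for Mobp and 3 for Olig1. Dose and experiment cannot be told apart in these differences.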

How the results depend on the processing

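Under 6 other settings (RLE size factors, total count only, no filter on low counts, DESeq2, a joint fit of 24 wells, and a replicate block), 66 of 69 values of Nes, Vim and Synm kept their direction and their side of the threshold. The other 3 were all Vim at 30 mM, which passed with total count only (log2 -0.16, adjusted p 0.0455), the joint fit (-0.18, adjusted p 0.0378) and the replicate block (-0.17, adjusted p 0.0428); the cause was not tested. Of 621 values of the other named genes 581 were kept, 40 no longer passed and 0 reversed. At 10 mM 32 genes were called by DESeq2 and 21 by the joint fit, against 89.

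Without each well in turn, Nes at 30 mM ran from -0.85 to -0.76 (adjusted p 1.80e-13 to 4.70e-10) and its dose difference from -0.80 to -0.65, and both passed in every fit. Vim at 30 mM ran from -0.22 to -0.14 (adjusted p 0.0108 to 0.185). The 5 other filament genes called at 30 mM stayed 5 in number. The 10 mM count ran from 37 to 95, with 40 and 45 without replicates 2 and 4 of 10 mM ethanol and 57, 37 and 46 without replicates 4, 5 and 6 of its controls. The count for the dose difference ran from 329 to 759, with 759 and 723 without replicates 1 and 2 of 30 mM ethanol. Directions of uncalled values turned for Lmnb2 (-0.0261 to 0.146 at 30 mM, -0.0266 to 0.118 at 10 mM) and for Gfap at 10 mM (-0.000865 to 0.0548).

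The replicate numbers gave little sign of pairing the wells. Deviations of same-numbered wells correlated between -0.169 and 0.236 over 12 pairs, and in 1 pair the own number was the best match. Low correlations over all tested genes cannot exclude a pairing. With the replicate block 1208 genes were called at 30 mM, 68 at 10 mM and 461 for the difference. Depth limits Synm most, at 18 to 44 counts per well.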
